A study of Mus musculus with 8 samples.

Results

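The 40 genes described here encode proteins of synaptic vesicles and of the machinery that fuses vesicles with the plasma membrane. They were taken as a list of gene symbols: synapsins, synaptophysins, SV2 proteins, synaptotagmins, SNARE proteins and their partners, Rab3 proteins, and proteins of the active zone and of vesicle priming. Of the 40 genes, 39 had a probe set annotated with their symbol alone, out of 19938 genes measured in that way. The only probe set of *Vamp2* is shared with another symbol, so no value is given for it. For a gene with several probe sets, the brightest on average was used. RNA levels were measured on Affymetrix mouse gene arrays in 4 groups of 2 arrays each. Neurons expressing GFP were sorted by flow cytometry from the ventral midbrain of *Pitx3*GFP/+ embryos on a mixed C57BL/6 x 129/Ola background at E14.5 and at E13.5. In these embryos 1 allele of *Pitx3*, a gene of midbrain dopaminergic neurons, carries GFP, so the sorted cells are those in which this locus was active. Laser microdissection gave the mdDA domain and the lateral domain of the midbrain of *BAT-gal* embryos on a mixed B6D2F1 background at E12.5, each as a pool of 5 embryos. The mdDA (mesodiencephalic dopaminergic) domain was the part of the ventral midbrain that stained for both PITX3 and b-galactosidase. The lateral domain, at the boundary of the alar and basal plates, stained for neither. The *BAT-gal* transgene makes b-galactosidase in cells that respond to WNT/b-catenin signaling. The 2 arrays of a group are technical replicates, so every p-value here measures the spread between arrays and not between embryos. The paper refers to an earlier study for the sorting and the arrays of the sorted neurons. Stage, strain, genotype, isolation and experiment thus all differ between the sorted neurons and the dissected domains. Their effects cannot be told apart.

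Neurons store transmitter in vesicles that dock and are primed at the active zone, a protein scaffold on the presynaptic membrane. When calcium enters, a synaptotagmin on the vesicle senses it, and the vesicle fuses through a complex of SNARE proteins that NSF later takes apart. Midbrain dopaminergic neurons release dopamine from axons as well as from their cell bodies and dendrites, and in the embryo these neurons are still growing their axons.

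Promoter windows of 300 bases, 250 before and 50 after an annotated start, were available from RefSeq (GRCm38.p6) for 30 of the 39 genes. The 4 windows below are shown because they hold the rarest motif matches among these genes (*Syn1* and *Unc13a*) or belong to a pair of SV2 genes whose levels differed between the groups in different ways (*Sv2a* and *Sv2b*). Capitals mark exact matches, on either strand, to TTCAGCACC and GGACAGCGC (the left and the right part of the RE1 element, which the neuronal gene repressor REST binds), to TGACGTCA (the cAMP response element) and to TATAAA (the TATA box). *Sv2a* has no such match, and for *Sv2b* the most upstream of its windows is given.
Syn1, chrX:20920869-20921168, minus strand: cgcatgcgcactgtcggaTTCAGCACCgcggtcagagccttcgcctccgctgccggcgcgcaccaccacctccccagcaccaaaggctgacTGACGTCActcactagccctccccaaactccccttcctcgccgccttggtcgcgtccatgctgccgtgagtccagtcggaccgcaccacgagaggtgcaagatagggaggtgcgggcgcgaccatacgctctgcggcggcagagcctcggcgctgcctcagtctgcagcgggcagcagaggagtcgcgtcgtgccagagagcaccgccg
Unc13a, chr8:71671708-71672007, minus strand: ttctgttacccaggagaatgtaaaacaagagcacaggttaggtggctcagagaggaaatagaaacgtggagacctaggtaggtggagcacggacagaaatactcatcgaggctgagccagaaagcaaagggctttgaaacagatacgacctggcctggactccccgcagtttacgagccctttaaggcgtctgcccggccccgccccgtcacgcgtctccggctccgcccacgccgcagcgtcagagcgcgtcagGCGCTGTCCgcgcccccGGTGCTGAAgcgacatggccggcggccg
Sv2a, chr3:96180977-96181276, plus strand: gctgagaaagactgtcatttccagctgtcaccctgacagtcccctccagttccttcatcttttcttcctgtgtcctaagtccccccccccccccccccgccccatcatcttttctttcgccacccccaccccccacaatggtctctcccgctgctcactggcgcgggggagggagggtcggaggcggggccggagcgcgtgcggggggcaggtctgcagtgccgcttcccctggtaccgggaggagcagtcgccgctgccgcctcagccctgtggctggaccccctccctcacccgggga
Sv2b, chr7:75309213-75309512, minus strand: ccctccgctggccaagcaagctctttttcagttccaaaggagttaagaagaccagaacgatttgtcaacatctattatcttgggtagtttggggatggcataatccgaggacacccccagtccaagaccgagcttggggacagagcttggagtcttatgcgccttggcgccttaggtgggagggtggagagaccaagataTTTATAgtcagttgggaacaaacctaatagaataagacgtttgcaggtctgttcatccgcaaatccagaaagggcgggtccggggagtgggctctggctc

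The left part of RE1 was found in 0.371% of all 32851 windows and the right part in 0.405%. Among the release genes the left part occurred in *Syn1* and *Unc13a* and the right part in *Unc13a*, where both lie downstream of the start and on the opposite strand. The cAMP response element was found in 1.79% of all windows and in *Syn1*, and the TATA box in 13.6% of all windows and in *Rab3b* and *Sv2b*. GGGCGG, the GC box, was in 68.3% of the 41 windows of release genes and in 35.7% of all windows. The median GC content was 63.7% in the windows of release genes and 52.7% in all windows. These matches describe the letters of the windows and say nothing of binding.

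Values are deposited log2 levels, on which a difference of 1 is a doubling. Of the 39 genes, 28 lay above the array median on all 8 arrays. *Synpr*, *Syt2*, *Syt12* and *Vamp1* lay below it on all 8, so their differences come from dim signals. The array median was 4.39 on all sorted arrays, against 4.57 to 4.6 on the dissected ones. The labels were checked with marker genes, as the mean log2 level of each list on each array. Dopaminergic markers averaged 9.21 to 9.31 in sorted neurons, 8.08 and 8.10 in the mdDA domain and 5.33 and 5.23 in the lateral domain, and *Th*, which makes the dopamine precursor, had 10.47 and 10.61 in E14.5 sorted neurons, 10.58 and 10.57 in E13.5 sorted neurons, 9.28 and 9.12 in the mdDA domain and 5.57 and 5.11 in the lateral domain. *Pitx3*, by which sorted cells and mdDA domain were both picked, differed less. Its difference was 0.67 for the mdDA over the lateral domain (adjusted p = 0.228, limma). For sorted neurons over the mdDA domain it was 0.44 (adjusted p = 0.143, limma), and neither passed the 10% threshold used below. The paper, with its own paired limma test and the same 10% threshold, counts *Pitx3* among the transcripts enriched in the mdDA over the lateral domain. The fit used here thus did not reproduce that call for *Pitx3*, and the reason was not tested. The release genes followed the same order of groups as the dopaminergic list, with means of 6.57 to 6.70 in sorted neurons. Their means were 6.24 and 6.24 in the mdDA domain and 5.68 and 5.67 in the lateral domain.

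**Figure D1:**
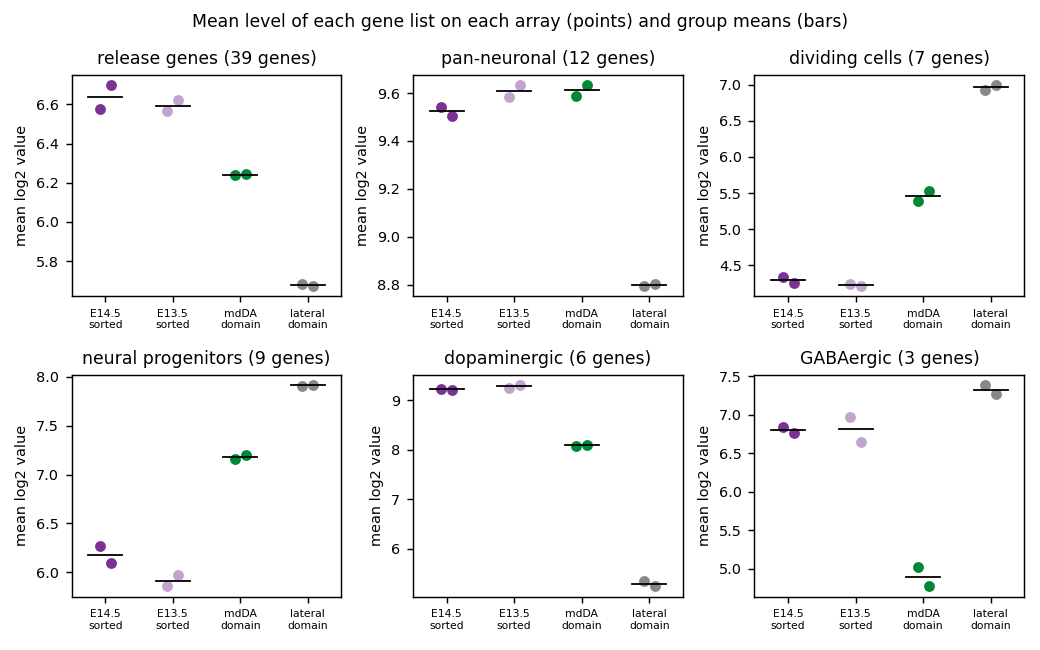
Mean log2 level (y axis) of 6 gene lists on each array, by group (x axis); points are arrays, bars are group means, and the y axes differ between panels. The release genes lie at 6.57 to 6.70 in sorted neurons, at 6.24 in the mdDA domain and at 5.67 and 5.68 in the lateral domain, while dividing-cell genes run the other way.

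Comparing the mdDA domain with the lateral domain asks how release genes differ between the dopaminergic territory and its neighbour at 1 stage. In the mdDA domain 6 of the 39 release genes were higher and 0 were lower: *Sv2b* (3.92-fold), *Syt4* (3.61-fold), *Pclo* (3.14-fold), *Syt5* (2.52-fold), *Cplx1* (2.37-fold) and *Rims1* (2.15-fold). A gene was called where limma's false discovery rate over all 35556 probe sets was below 10%. By this rule 1.69% of all genes were higher and 1.13% lower. The log2 differences of the 39 genes ran between -0.26 and 1.97 with a median of 0.51, against a median of -0.01 over all genes, and 36 were positive. In 27 genes both mdDA arrays lay above both lateral arrays, as in 22.5% of all genes. In *Synpr* and *Syt11* both lay below, as in 23.9% of all genes. The fit has 1 residual degree of freedom, and without any 1 of the 4 arrays 0 of the 6 calls passed, although the differences stayed positive, at 1.77 to 2.17 for *Sv2b*, 0.94 to 1.27 for *Rims1* and 1.17 to 1.96 for the other 4 genes. With no replicate block 10 release genes were higher, *Sv2a*, *Rab3c*, *Cadps* and *Snap91* being added, against 2.68% of all genes. With only the probe sets of 1 symbol in the fit 21 were higher, against 6.17% of all genes.

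Comparing sorted neurons with the mdDA domain sets purified neurons of later stages against E12.5 tissue that holds cells of the same kind. In sorted neurons 19 of the 39 genes were higher and 3 lower. The 5 largest differences were *Sv2a* at 2.29-fold, *Rab3b* at 2.25-fold, *Cadps2* at 2.22-fold, *Syt13* at 2.20-fold and *Syp* at 2.12-fold, while *Syt6*, *Cplx2* and *Rims2* were lower by 1.53-fold, 1.59-fold and 1.47-fold. By the same limma rule 10.3% of all genes were higher and 7.29% lower. The median log2 difference was 0.41 over the release genes and -0.05 over all genes. All sorted arrays lay above both mdDA arrays in 22 genes, as in 17% of all genes, and below in 6, as in 20.8% of all genes. In bulk RNA, fewer cells of a type and less RNA per cell cannot be told apart. Centring each array on its median moved the median over all genes to 0.14, and with it 22 release genes were higher and 1 lower. Of all 19938 genes, 3739 were then higher and 604 lower, against 2055 and 1454 on the deposited scale. Higher genes thus made up 86.1% of all called genes after centring and 58.6% before. Leaving out 1 mdDA array lowered the number of calls, both among the release genes and over all probe sets. The calls of *Syn1*, *Sv2a*, *Syt4*, *Snap25*, *Nsf*, *Rab3a*, *Rab3c* and *Cadps2*, 8 of the 22, held without each array in turn.

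**Figure D2:**
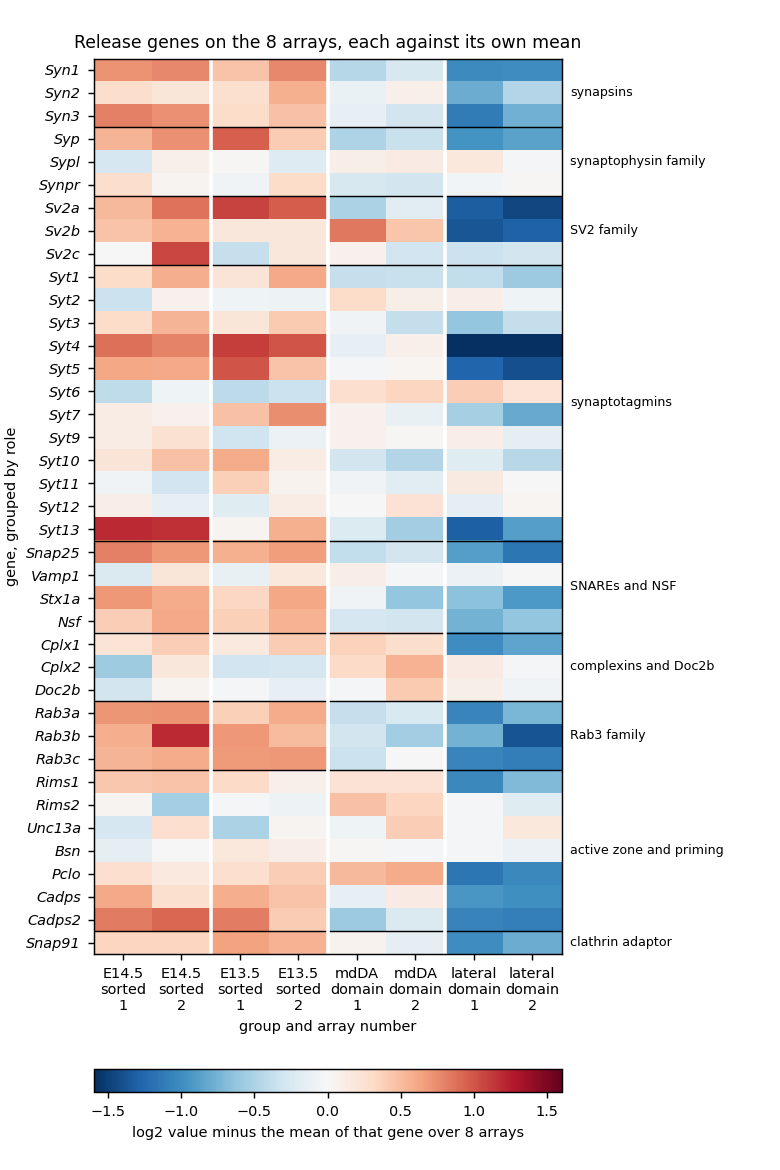
Each of the 39 release genes (rows, grouped by role) on the 8 arrays (columns, by group and array number), coloured by its log2 value minus that gene's mean over the 8 arrays. Many rows run from red in sorted neurons to blue in the lateral domain, while others, Syt6, Cplx2, Rims2, Syt11 and Bsn among them, do not.

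**Figure D3:**
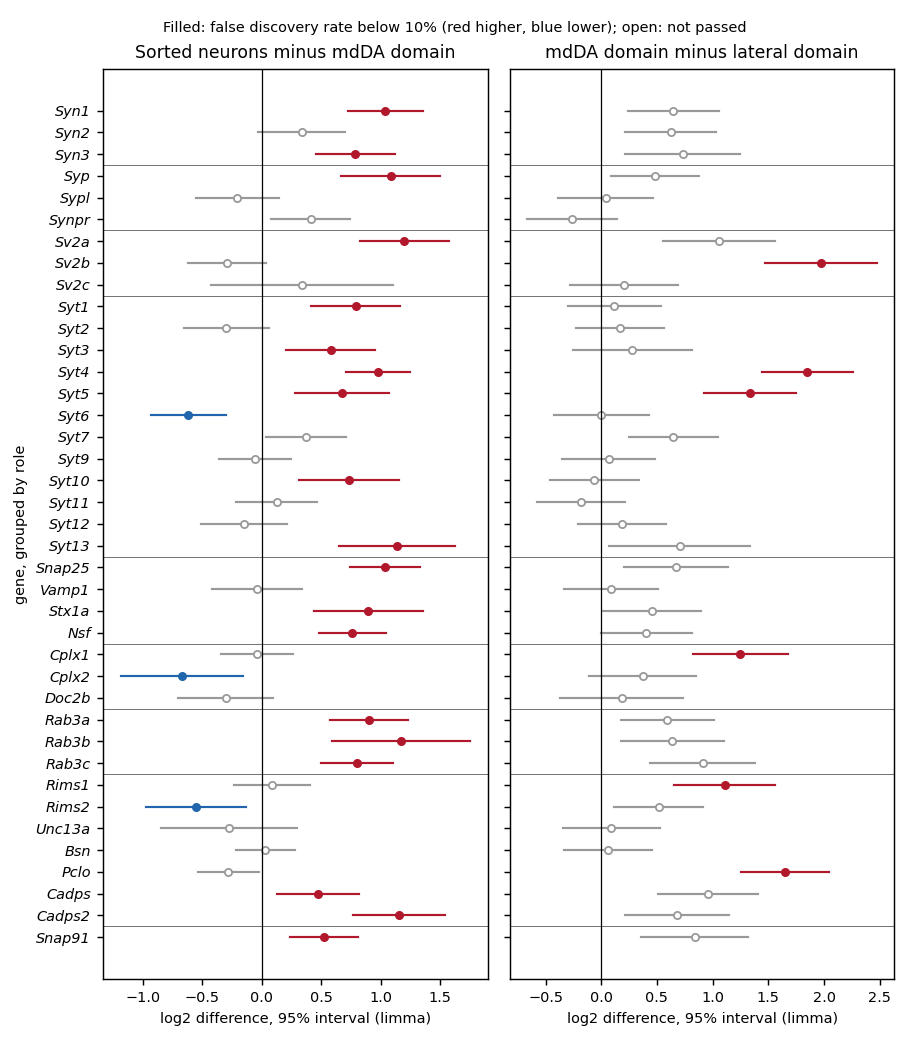
log2 difference (x axis) with its 95% interval from limma for each release gene (y axis), for sorted neurons minus mdDA domain (left) and mdDA domain minus lateral domain (right). Filled points passed a false discovery rate of 10%, with 19 higher and 3 lower on the left and 6 higher on the right; open points did not.

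Synapsins tie vesicles to one another and to actin, and they hold the reserve pool. *Syn1*, whose promoter window is shown above, had 8.0 and 8.04 in E14.5 sorted neurons, 7.73 and 8.05 in E13.5 sorted neurons, 6.81 and 7.02 in the mdDA domain and 6.26 and 6.28 in the lateral domain. Its sorted, mdDA and lateral arrays stood apart, and the step between sorted neurons and the mdDA domain was 1.04 (SE 0.13, adjusted p = 0.00860, limma). The step between the mdDA domain and the lateral domain was 0.65 (SE 0.15) with an adjusted p = 0.193, above the threshold. *Syn3* was higher in sorted neurons by 0.79 (adjusted p = 0.0197). *Syn2* had 5.66 and 5.58 in E14.5 sorted neurons, 5.64 and 5.96 in E13.5 sorted neurons, 5.28 and 5.47 in the mdDA domain and 4.59 and 4.91 in the lateral domain. Sorted, mdDA and lateral arrays did not overlap, but neither step passed, with differences of 0.34 (95% interval -0.03 to 0.70) for sorted neurons over the mdDA domain and 0.62 (0.22 to 1.03) for the mdDA over the lateral domain. The first passed where arrays were centred on their medians (0.53, adjusted p = 0.0697).

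Synaptophysin, from *Syp*, is an abundant membrane protein of synaptic vesicles that binds synaptobrevin. *Syp* had 7.94 and 8.13 in E14.5 sorted neurons, 8.36 and 7.81 in E13.5 sorted neurons, 6.91 and 7.05 in the mdDA domain and 6.45 and 6.55 in the lateral domain. All sorted arrays lay above the dissected ones, and the gene was 2.12-fold higher in sorted neurons than in the mdDA domain (adjusted p = 0.0152, limma). Neither of its relatives passed. *Synpr* (synaptoporin) was dim on every array, with 3.68 and 3.44 in E14.5 sorted neurons, 3.35 and 3.69 in E13.5 sorted neurons, 3.15 and 3.11 in the mdDA domain and 3.36 and 3.42 in the lateral domain. Its difference of 0.41 between sorted neurons and the mdDA domain did not pass (adjusted p = 0.113), and passed where arrays were centred or quantile normalized. *Sypl*, a family member also made outside neurons, spanned 5.32 to 5.76 over the 8 arrays, with all sorted arrays below both mdDA arrays and a difference of -0.20 (adjusted p = 0.411).

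The SV2 genes encode vesicle glycoproteins of the transporter fold, and the 3 paralogs gave 3 patterns. *Sv2a* had 7.67 and 8.02 in E14.5 sorted neurons, 8.23 and 8.11 in E13.5 sorted neurons, 6.64 and 6.98 in the mdDA domain and 5.82 and 5.69 in the lateral domain, with no overlap between sorted, mdDA and lateral arrays. It was 2.29-fold higher in sorted neurons than in the mdDA domain (adjusted p = 0.00903), and the 2.08-fold difference of the mdDA over the lateral domain missed the threshold in the blocked limma fit (adjusted p = 0.120) and passed without the block (adjusted p = 0.0627). *Sv2b* had 5.37 and 5.47 in E14.5 sorted neurons, 5.09 and 5.10 in E13.5 sorted neurons, 5.75 and 5.35 in the mdDA domain and 3.54 and 3.62 in the lateral domain. Here both lateral arrays lay far below all others and below their array medians, and sorted and mdDA arrays overlapped. The mdDA domain exceeded the lateral domain by 1.97 (SE 0.19, adjusted p = 0.0494), and the difference between sorted neurons and the mdDA domain was -0.29 (95% interval -0.62 to 0.03). *Sv2c*, whose protein is known in the adult from basal ganglia neurons, dopaminergic ones included, had 4.30 and 5.37 in E14.5 sorted neurons, 3.93 and 4.49 in E13.5 sorted neurons, 4.37 and 3.99 in the mdDA domain and 3.96 and 4.01 in the lateral domain. The 2 E14.5 arrays had an SD of 0.76, the widest spread of any group among the release genes, so the interval for sorted neurons over the mdDA domain, -0.42 to 1.10, leaves both directions possible.

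**Figure D4:**
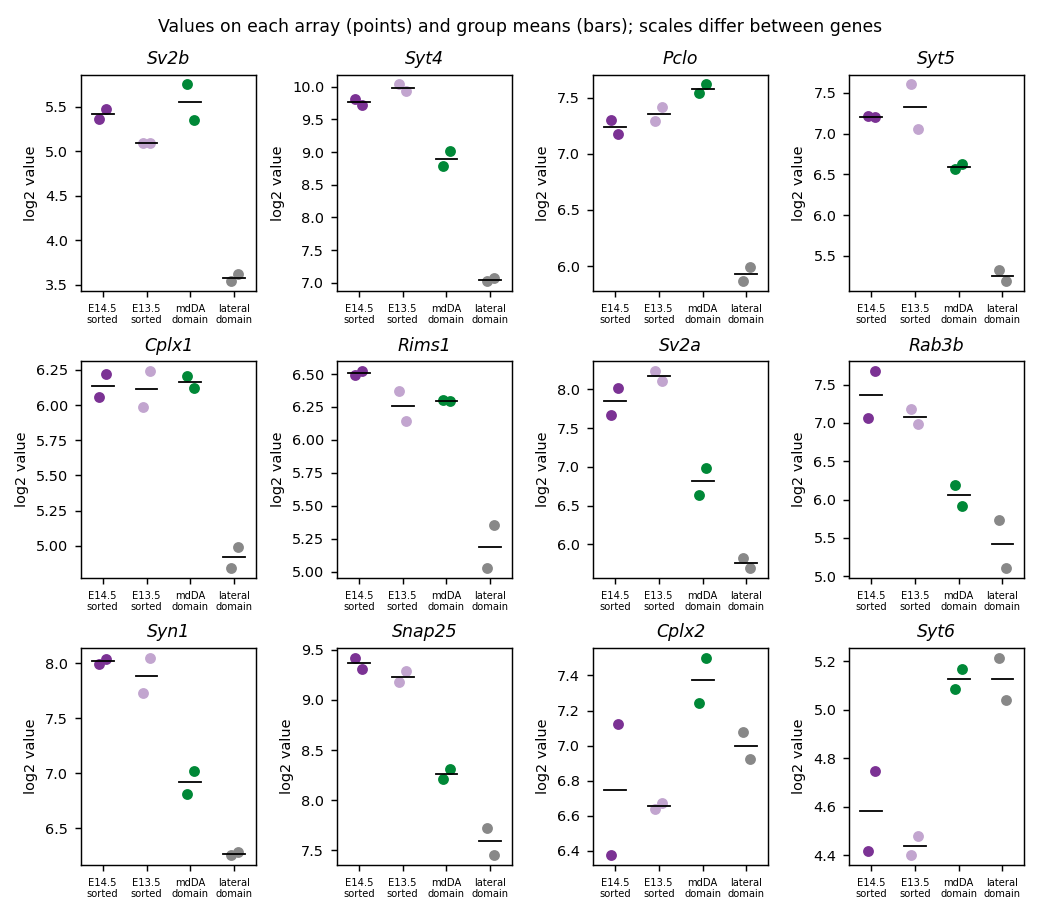
log2 values (y axis, a scale of its own in each panel) of 12 release genes on each array (points) and group means (bars), by group (x axis). Sv2b, Syt4, Pclo, Syt5, Cplx1 and Rims1 have both lateral arrays far below the rest, Sv2a, Rab3b, Syn1 and Snap25 have all sorted arrays above the mdDA arrays, and Cplx2 and Syt6 have them below.

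Synaptotagmins are membrane proteins with tandem C2 domains, and several sense the calcium that triggers fusion. Of the 12 measured, 2 were higher in the mdDA than in the lateral domain, as were 1.69% of all genes. In sorted neurons against the mdDA domain 6 were higher and 1 lower, where 10.3% and 7.29% of all genes were. *Syt4*, whose protein lies on vesicles of neurons and neuroendocrine cells and binds calcium poorly, had 9.81 and 9.72 in E14.5 sorted neurons, 10.04 and 9.94 in E13.5 sorted neurons, 8.79 and 9.01 in the mdDA domain and 7.02 and 7.08 in the lateral domain. The sorted, mdDA and lateral arrays formed 3 separate levels. The difference was 0.97 (SE 0.11, adjusted p = 0.00688) for sorted neurons over the mdDA domain and 1.85 (SE 0.15, adjusted p = 0.0445) for the mdDA over the lateral domain, 2 comparisons that share the mdDA arrays. *Syt5* had 7.22 and 7.20 in E14.5 sorted neurons, 7.60 and 7.06 in E13.5 sorted neurons, 6.56 and 6.62 in the mdDA domain and 5.32 and 5.19 in the lateral domain. It also passed in both limma comparisons, at 0.68 (adjusted p = 0.0481) and 1.34 (adjusted p = 0.0623), although the 2 E13.5 arrays lay further apart than those of any other group.

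*Syt1*, the calcium sensor for fast release in forebrain neurons, differed between sorted and dissected cells. It had 8.15 and 8.43 in E14.5 sorted neurons, 8.07 and 8.46 in E13.5 sorted neurons, 7.48 and 7.49 in the mdDA domain and 7.46 and 7.28 in the lateral domain. The sorted arrays stood above the dissected ones by 0.79 over the mdDA domain (adjusted p = 0.0270), while the difference between the mdDA and the lateral domain was 0.12 (95% interval -0.30 to 0.53). *Syt13*, an atypical family member that does not bind calcium, had 8.46 and 8.43 in E14.5 sorted neurons, 7.30 and 7.83 in E13.5 sorted neurons, 7.04 and 6.70 in the mdDA domain and 5.96 and 6.37 in the lateral domain. Its 4 groups stood in that order without overlap, and sorted neurons exceeded the mdDA domain by 1.13 (SE 0.20, adjusted p = 0.0204, limma). With E13.5 sorted neurons alone the difference was 0.69 and did not pass (adjusted p = 0.136, limma). Nor did the difference of 0.70 for the mdDA over the lateral domain (adjusted p = 0.317, limma). *Syt3* (adjusted p = 0.0636) and *Syt10* (adjusted p = 0.0470) were higher in sorted neurons by 0.58 and 0.73.

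*Syt6*, *Cplx2* and *Rims2*, singled out after their values were seen, were the 3 release genes lower in sorted neurons than in the mdDA domain. *Syt6*, known for its part in the acrosome reaction of mammalian sperm, had 4.42 and 4.75 in E14.5 sorted neurons, 4.4 and 4.48 in E13.5 sorted neurons, 5.09 and 5.17 in the mdDA domain and 5.21 and 5.04 in the lateral domain. All sorted arrays lay below all dissected ones, with a difference of -0.62 (SE 0.13, adjusted p = 0.0339), and the mdDA and lateral domains overlapped, with a difference of 0.00 (95% interval -0.43 to 0.43). The synaptotagmins that passed in neither comparison were *Syt2*, *Syt7*, *Syt9*, *Syt11* and *Syt12*. *Syt7*, a slow calcium sensor of high affinity that in mouse dopaminergic neurons serves release from dendrites, had 7.24 and 7.20 in E14.5 sorted neurons, 7.59 and 7.88 in E13.5 sorted neurons, 7.19 and 7.01 in the mdDA domain and 6.59 and 6.32 in the lateral domain. The lateral arrays were lowest, and the differences of 0.65 for the mdDA over the lateral domain (adjusted p = 0.183) and 0.37 for sorted neurons over the mdDA domain (adjusted p = 0.142) missed the threshold, the second passing where arrays were centred on their medians (0.57, adjusted p = 0.0420). *Syt11*, an atypical member linked to endocytosis, stayed between 8.08 and 8.76 on all 8 arrays.

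SNARE proteins carry out fusion: synaptobrevin on the vesicle pairs with syntaxin and SNAP-25 on the plasma membrane. *Snap25* had 9.42 and 9.31 in E14.5 sorted neurons, 9.18 and 9.29 in E13.5 sorted neurons, 8.21 and 8.31 in the mdDA domain and 7.73 and 7.45 in the lateral domain. Sorted, mdDA and lateral arrays did not overlap, and the gene was 2.05-fold higher in sorted neurons than in the mdDA domain (log2 difference 1.03, SE 0.12, adjusted p = 0.00722, limma). *Stx1a*, which encodes syntaxin 1A, had 7.27 and 7.18 in E14.5 sorted neurons, 6.91 and 7.20 in E13.5 sorted neurons, 6.53 and 5.97 in the mdDA domain and 5.93 and 5.66 in the lateral domain. All sorted arrays were above the dissected ones (0.89, adjusted p = 0.0327), and mdDA array 1 lay well above array 2. *Nsf*, the ATPase that takes spent SNARE complexes apart, was higher in sorted neurons by 0.76 (adjusted p = 0.0141). The lesser synaptobrevin gene *Vamp1* was dim throughout, from 3.79 to 4.21, with a difference of -0.04 (95% interval -0.42 to 0.34).

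Complexins bind the assembled SNARE complex and regulate its fusion step, and the 2 genes listed differed in pattern. *Cplx1* had 6.06 and 6.22 in E14.5 sorted neurons, 5.99 and 6.24 in E13.5 sorted neurons, 6.21 and 6.12 in the mdDA domain and 4.84 and 4.99 in the lateral domain. Only the lateral arrays stood apart: the mdDA domain exceeded the lateral domain 2.37-fold (adjusted p = 0.0719, limma), while sorted neurons and the mdDA domain overlapped, with a 95% interval for their difference of -0.34 to 0.26. *Cplx2* had 6.38 and 7.12 in E14.5 sorted neurons, 6.64 and 6.67 in E13.5 sorted neurons, 7.25 and 7.50 in the mdDA domain and 7.08 and 6.92 in the lateral domain. Both mdDA arrays lay above all sorted arrays, and the difference of -0.67 (SE 0.21) stood just inside the threshold (adjusted p = 0.0997). The call was lost with a replicate block (adjusted p = 0.109) and with arrays centred on their medians (-0.67 became -0.47, adjusted p = 0.208). *Doc2b*, a soluble C2-domain calcium sensor of high affinity, stayed between 4.02 and 4.74 on the 8 arrays and passed in neither comparison.

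Rab3 proteins are small GTPases on the vesicle that bind effectors at the active zone. All 3 listed here were higher in sorted neurons than in the mdDA domain, as were 10.3% of all genes. *Rab3d*, from the wider pathway list, differed by -0.10 (adjusted p = 0.67, limma). *Rab3a* had 8.65 and 8.66 in E14.5 sorted neurons, 8.32 and 8.54 in E13.5 sorted neurons, 7.58 and 7.71 in the mdDA domain and 6.89 and 7.21 in the lateral domain. Its sorted, mdDA and lateral arrays did not overlap, and the first step was 0.90 (adjusted p = 0.0129). *Rab3b*, known in rodents as an isoform that midbrain dopaminergic neurons use, had 7.07 and 7.67 in E14.5 sorted neurons, 7.18 and 6.99 in E13.5 sorted neurons, 6.19 and 5.92 in the mdDA domain and 5.73 and 5.10 in the lateral domain. The difference between sorted neurons and the mdDA domain was 2.25-fold (log2 1.17, SE 0.24, adjusted p = 0.0308), with the 2 E14.5 arrays further apart than those at E13.5. *Rab3c* had 8.83 and 8.89 in E14.5 sorted neurons, 8.97 and 8.98 in E13.5 sorted neurons, 7.95 and 8.29 in the mdDA domain and 7.23 and 7.18 in the lateral domain. It was higher in sorted neurons by 0.80 (adjusted p = 0.0144), and its difference of 0.91 for the mdDA over the lateral domain missed the threshold with the replicate block (adjusted p = 0.135, limma) and passed without it (adjusted p = 0.0837).

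Of the 7 genes of the active zone and of priming, 2 were higher in the mdDA than in the lateral domain. Of all genes, 1.69% were. In sorted neurons 2 of the 7 were higher and 1 lower than in the mdDA domain, against 10.3% and 7.29% of all genes. *Pclo* encodes piccolo, a very large scaffold protein, and had 7.30 and 7.18 in E14.5 sorted neurons, 7.29 and 7.41 in E13.5 sorted neurons, 7.54 and 7.62 in the mdDA domain and 5.87 and 5.99 in the lateral domain. The mdDA domain exceeded the lateral domain 3.14-fold (log2 1.65, SE 0.15, adjusted p = 0.0453). Its 2 arrays were also above all sorted arrays, by a difference that did not pass (-0.28 for sorted neurons over the mdDA domain, adjusted p = 0.15). After quantile normalization the latter difference passed (-0.46, adjusted p = 0.0440, limma). *Rims1*, the scaffold that links Rab3, calcium channels and Munc13, had 6.49 and 6.52 in E14.5 sorted neurons, 6.37 and 6.14 in E13.5 sorted neurons, 6.30 and 6.29 in the mdDA domain and 5.03 and 5.35 in the lateral domain. Only the lateral arrays were low, and the mdDA domain exceeded them by 1.11 (SE 0.17, adjusted p = 0.0910, limma), a call lost after quantile normalization, where the difference was 1.21 (adjusted p = 0.106). *Rims2*, its paralog, had 7.20 and 6.62 in E14.5 sorted neurons, 7.14 and 7.09 in E13.5 sorted neurons, 7.63 and 7.50 in the mdDA domain and 7.14 and 6.97 in the lateral domain. The mdDA arrays were the highest, and the difference of -0.55 for sorted neurons passed (adjusted p = 0.0972), but not with arrays centred on their medians (-0.36, adjusted p = 0.24).

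Bassoon and Munc13-1 completed the active zone genes. *Bsn* (bassoon), the relative of piccolo, had 6.32 and 6.48 in E14.5 sorted neurons, 6.64 and 6.58 in E13.5 sorted neurons, 6.49 and 6.46 in the mdDA domain and 6.46 and 6.38 in the lateral domain. All 8 values lay within 6.32 to 6.64, and the 95% intervals were -0.22 to 0.28 for sorted neurons over the mdDA domain and -0.34 to 0.46 for the mdDA over the lateral domain. *Unc13a* encodes Munc13-1, the priming factor without which vesicles do not become ready for fusion, and its promoter window with both parts of RE1 is shown above. It had 7.02 and 7.56 in E14.5 sorted neurons, 6.79 and 7.33 in E13.5 sorted neurons, 7.22 and 7.68 in the mdDA domain and 7.27 and 7.45 in the lateral domain, with SDs of 0.38, 0.38 and 0.33 in the sorted stages and the mdDA domain. The gene has 3 probe sets, and they disagreed: for sorted neurons over the mdDA domain the difference was -0.28 on the one used (adjusted p = 0.496) and -0.42 (adjusted p = 0.354) and 0.57 (adjusted p = 0.05) on the other two, so no direction is given for it.

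CAPS proteins, from *Cadps* and *Cadps2*, prime dense-core vesicles and promote the filling of vesicles with monoamines. *Cadps2* had 5.07 and 5.16 in E14.5 sorted neurons, 5.06 and 4.65 in E13.5 sorted neurons, 3.66 and 4.01 in the mdDA domain and 3.17 and 3.14 in the lateral domain. It lay above the array median on every sorted array and below it on every dissected one, and the difference between sorted neurons and the mdDA domain was 2.22-fold (adjusted p = 0.0105, limma). *Cadps* had 8.68 and 8.32 in E14.5 sorted neurons, 8.64 and 8.52 in E13.5 sorted neurons, 7.93 and 8.20 in the mdDA domain and 7.13 and 7.08 in the lateral domain. Its difference of 0.47 for sorted neurons passed narrowly (adjusted p = 0.0895) and was lost with a replicate block and after quantile normalization, and its difference of 0.96 for the mdDA over the lateral domain did not pass with the replicate block (adjusted p = 0.114) and passed without it (adjusted p = 0.0595). *Snap91* encodes AP180, a clathrin adaptor that retrieves synaptobrevin after fusion. It was higher in sorted neurons than in the mdDA domain by 0.53 (SE 0.12, adjusted p = 0.0393, limma). That call was lost after quantile normalization (0.32, adjusted p = 0.177) and with E14.5 sorted neurons alone (0.40, adjusted p = 0.139). For the mdDA over the lateral domain, its difference of 0.84 did not pass with the replicate block (adjusted p = 0.158) and passed without it (adjusted p = 0.0865).

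Between E14.5 and E13.5 sorted neurons 0 of the 39 release genes and 0 of all probe sets passed in limma. At an unadjusted p below 0.05 there were 2 release genes and 5.05% of all genes. For E14.5 over E13.5, *Syt13* differed by 0.88 (95% interval 0.28 to 1.49, adjusted p = 0.744) and *Syt7* by -0.52 (-0.95 to -0.08, adjusted p = 0.780), each with no overlap between stages. In all, 8 release genes had both E14.5 arrays above both E13.5 arrays, as in 18.1% of all genes, and 7 had them below, as in 19.1% of all genes. The differences of the 39 genes had a median of 0.03, against 0.00 over all genes. For *Snap25* the interval was -0.24 to 0.50 and for *Syt4* -0.58 to 0.14, so differences of either sign within these intervals remain possible. With 2 arrays a stage, larger differences such as that of *Syt13* did not pass either.

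Other genes of the release and recycling pathway came from a list of 113 symbols, of which 108 were measured. In the mdDA domain against the lateral domain 9 were higher and 1 lower, where 1.69% and 1.13% of all genes were, and the median difference was 0.25, against -0.01 over all genes. The higher ones, with their log2 differences, were *Slc18a2* (3.15), the vesicular monoamine transporter, *Dnajc6* (2.41), the auxilin that uncoats clathrin-coated vesicles, *Dnm1* (1.12), the dynamin that cuts them from the membrane, *Stxbp6* (1.52), *Syt17* (1.07), and the active zone genes *Apba1* (1.95), *Erc2* (1.88), *Lin7a* (1.24) and *Ppfia2* (1.03). *Slc32a1*, the vesicular transporter of GABA and glycine, was the one lower gene (-1.34). In sorted neurons against the mdDA domain 37 of the 108 were higher and 4 lower, where 10.3% and 7.29% of all genes were, with a median of 0.21 against -0.05 over all genes. Vesicle membrane proteins and transporters had 13 of 17 higher, among them *Slc32a1* (2.53), *Syngr3* (1.44), *Slc18a2* (1.26) and *Atp6ap1* (1.25), a subunit of the vesicle proton pump. Recycling genes had 11 of 27 higher, among them *Amph* (1.36), *Dnajc6* (1.04), *Cltb* (0.90) and *Ap2s1* (0.89), of clathrin coats and their partners. The further active zone and Rab3 genes had 2 of 24 higher, *Lin7c* (0.79) and *Ppfia3* (0.60), or 8.33% beside the 10.3% of all genes. SNAREs and their binding proteins had 8 of 23 higher, with *Napb* (1.01) and *Napg* (0.99), the SNAP proteins that recruit NSF, in front. Among the C2-domain proteins 3 of 17 were higher, *Syt17* (1.53), *Syt16* (0.78) and *Rph3a* (0.63), the last a Rab3 effector. The 4 lower were *Slc18a3* (-0.90), the acetylcholine transporter of motor neurons, *Stxbp6* (-0.71), *Stxbp2* (-0.64) and *Doc2g* (-0.51). Between E14.5 and E13.5 sorted neurons 0 of the 108 passed. Differences between roles were not tested.

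The make-up of the samples moved along with these groups. Beside the counts below, 10.3% of all genes were higher and 7.29% lower in sorted neurons against the mdDA domain. In the mdDA against the lateral domain 1.69% were higher and 1.13% lower. Dividing-cell genes averaged 4.21 to 4.34 in sorted neurons, 5.39 and 5.53 in the mdDA domain and 6.93 and 7.0 in the lateral domain, and 6 of 7 were lower in each step, *Top2a* and *Ccna2* among them. Progenitor genes such as *Sox2* and *Nes* averaged 5.86 to 6.27 in sorted neurons, 7.16 and 7.2 in the mdDA domain and 7.91 and 7.92 in the lateral domain, with 8 of 9 lower in sorted neurons against the mdDA domain and 3 of 9 lower in the mdDA against the lateral domain. Genes of neurons in general, such as *Tubb3* and *Mapt*, averaged 9.50 to 9.63 in sorted neurons, 9.59 and 9.64 in the mdDA domain and 8.79 and 8.80 in the lateral domain. They thus overlapped between sorted neurons and the mdDA domain, where 3 of 12 were higher and 2, *Nefm* (-1.42) and *Nefl* (-0.72), lower. In the mdDA against the lateral domain 5 of 12 were higher, these 2 among them, and 0 lower. The GABAergic genes *Gad1*, *Gad2* and *Slc32a1* averaged 6.65 to 6.97 in sorted neurons, 5.02 and 4.77 in the mdDA domain and 7.39 and 7.26 in the lateral domain. The mdDA domain was thus the group lowest in this list. Motor neuron genes, *Slc18a3* and *Isl1* among them, averaged 3.67 to 3.84 in sorted neurons. Their means were 4.64 and 4.69 in the mdDA domain and 3.80 and 3.92 in the lateral domain. Of the 5 genes, 2, *Isl1* and *Slc5a7*, were higher in the mdDA than in the lateral domain, where *Slc18a3* missed the threshold (adjusted p = 0.107, limma). In sorted neurons 3 of 5 were lower than in the mdDA domain. Erythroid genes, mainly globins such as *Hba-x* and *Hbb-y*, averaged 4.09 to 4.25 in sorted neurons, 8.14 and 8.11 in the mdDA domain and 8.04 and 8.19 in the lateral domain. Erythroid RNA thus set dissected tissue apart from sorted cells and did not separate the domains. Endothelial genes averaged 4.00 to 4.10 in sorted neurons, 4.80 and 4.63 in the mdDA domain and 4.62 and 4.73 in the lateral domain, and 3 of 5 were lower in sorted neurons. Microglial genes averaged 3.83 to 4.06 in sorted neurons, 4.32 and 4.15 in the mdDA domain and 4.18 and 4.08 in the lateral domain, and 0 of 4 passed. The part of these cell types in the differences of the release genes was not tested.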

How the data were processed

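RNA of 4 groups with 2 technical-replicate arrays each was measured on Affymetrix mouse gene arrays. The paper describes whole-transcriptome amplification for the dissected domains and refers to an earlier study for the sorted neurons. The log2 levels deposited by the authors come from RMA at the gene level (Affymetrix Expression Console 1.2, sketch-quantile normalization), and were used unchanged and unfiltered. Raw intensities were not used here, and the number of arrays limits the precision. Of 35556 probe sets, 21789 had 1 gene symbol in the platform annotation, 1621 had several and 12146 had none. The annotation's build is not given in the sources used here.

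Tests used limma 3.58.1 in R 4.3.3 with Benjamini-Hochberg adjustment over all probe sets and a false discovery rate below 10%. The mdDA and lateral domains were compared on their 4 arrays with the replicate number as a block, since the methods name a paired test without saying what pairs the arrays. The mean of both sorted stages was compared with the mdDA domain in a fit of 8 arrays without a block, and the sorted stages were compared on their own 4 arrays, also without one. Arrays of equal number did not deviate together (correlations of -0.04 to 0.01). Every test was tested on simulated data. Alternatives covered the block, the arrays fitted, normalization, dim probe sets, the threshold, the probe set chosen and each array left out.

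The genes and lists were chosen with earlier results of these data known. Arrays are given in full for called genes with no overlap between groups, up to 12 per comparison by size of difference, and for their closest uncalled relatives. Other genes are summarised. Of the pathway list, up to 4 called genes per comparison and role are named. Promoter windows came from RefSeq (GRCm38.p6), and 39 of 39 symbols matched its gene table.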

Additional observations from a re-analysis of the deposited data

How the results depend on the processing

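For the mdDA against the lateral domain, the counts of release genes, of other pathway genes and of all probe sets called were 6, 10 and 931. A false discovery rate of 5% gave 3, 2 and 227. Dropping the replicate block gave 10, 16 and 1434, and dropping it in a fit on all 8 arrays gave 12, 20 and 1314. A variance trend with robust fitting gave 10 release genes and 1646 probe sets, and a fit on probe sets with 1 symbol only gave 21, 31 and 2502. Fewer probe sets entered that fit, 21789 of 35556. Leaving out each array in turn gave 0 to 0, 0 to 2 and 15 to 170, in fits without the block in which the lone array is assumed to vary like the other groups. Of the 6 calls, 3 held in all 10 settings that kept every array.

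For sorted neurons against the mdDA domain, the counts were 22, 41 and 6532, and a false discovery rate of 5% gave 3935 probe sets. Leaving out each array in turn gave 9 to 21 release genes, 14 to 41 other pathway genes and 2037 to 6505 probe sets, with the lowest counts without an mdDA array. Of the 22 calls, 15 held in all 11 settings with every array and 8 also without each array. The replicate block took away the calls of *Cplx2* and *Cadps* and left 20. The difference of *Unc13a* turned to 0.57 on its dimmest probe set. Between the sorted stages 0 probe sets passed, and 20 did in a fit on all 8 arrays. The cause of these shifts was not tested. With 2 technical replicates a group, the spread between embryos is unknown.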
